A study of Mus musculus with 4 samples.

Results

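Keratins of simple epithelia and sciellin were examined in hypoxic TKPTS cells, a mouse renal proximal tubular cell line that the sample labels call TKPT. The set holds 7 of the 22063 genes listed in the deposited count table: *Krt7*, *Krt8*, *Krt18*, *Krt19*, *Krt20*, *Krt23* and *Scel*. They were chosen by name, with their levels and their change between the groups in these same libraries already known, so all their values here are a description without a test. Cells had been transfected with a scrambled siRNA (si-NC, replicates 2 and 3) or with an siRNA against *Itgb6*, an integrin beta subunit (si-*Itgb6*, replicates 1 and 3). All 4 libraries came from cells kept for 24 h in 1% O2 and then for 12 h in normal oxygen, so no library shows the keratins without this injury. A single cell line was used, and the labels do not say whether replicates were separate cultures. P-values therefore measure the spread between these libraries, which may be technical. The study's methods also mention that samples were optimized after clustering, without saying whether libraries were left out.

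Keratins build the intermediate filaments of epithelial cells. An acidic type I chain pairs with a basic or neutral type II chain, and a chain without a partner is degraded. *Krt8* (type II) and *Krt18* (type I) encode the primary pair of simple epithelia such as the renal tubule, *Krt7* (type II) and *Krt19* (type I) are typical of ducts, and *Krt20* and *Krt23* are further type I genes. Renal tubular cells are known to raise several simple keratins after injury. *Scel* encodes sciellin, a protein with a LIM domain that is a precursor of the cornified envelope of stratified epithelia, and it builds no filament. 

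The libraries held 15435074 to 17220281 estimated counts, and 11727 genes passed the filter on low counts. *Itgb6* itself had 285 and 284 counts in si-NC and 279 and 260 counts in si-*Itgb6*, and its log2 fold change was -0.0051 (standard error, SE, 0.13; adjusted p = 0.991, edgeR quasi-likelihood test, Benjamini-Hochberg). Since the mRNA of the targeted gene was not lower by more than this spread between replicates, the groups are "the libraries labelled" si-NC and si-*Itgb6*. The paper reports less of the integrin protein by western blot in hypoxic TKPTS cells given the siRNA, and names qPCR as a further check. Protein was not measured in these libraries. A gene was called at an unadjusted p under 0.05 with a fold change over 1.2, and 5.2% of the genes tested were called lower and 4.37% higher in si-*Itgb6*. At an adjusted p under 0.05, in either direction and at any fold change, the share was 4.62%. Of 22 proximal tubule markers 11 had no count in any library, among them *Slc34a1*, *Slc5a2*, *Slc22a6*, *Miox* and *Fbp1*, and *Lrp2*, which encodes the endocytic receptor megalin, had 2 to 17 counts, while *Aqp1*, *Mme*, *Lap3* and *Slc4a4* were present.

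Read counts per length (the authors' FPKM) put 4 of the keratins at high levels, the lowest of them, *Krt7*, between rank 381 and rank 428 of all genes. *Krt19* had 1551 and 1567 FPKM in si-NC and 1527 and 1544 FPKM in si-*Itgb6*, which placed it between rank 41 and rank 45 of all genes. *Krt18* followed with 613 and 607 FPKM in si-NC and 580 and 603 FPKM in si-*Itgb6* (rank 137 to rank 143). *Krt8* had 402 and 400 FPKM in si-NC and 351 and 341 FPKM in si-*Itgb6* (rank 196 to rank 224). The order *Krt19*, *Krt18*, *Krt8* was therefore the same in each library, with gaps far wider than the spread between replicates. *Krt7*, at 202 and 182 FPKM in si-NC and 184 and 181 FPKM in si-*Itgb6*, shared the next place with *Krt17*, a type I keratin outside the set with 181 to 197 FPKM, and these neighbours were not separated by their spread.

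*Krt20* and *Scel* lay lower and close to each other. *Krt20* had 70.5 and 73.7 FPKM in si-NC and 76.3 and 81.4 FPKM in si-*Itgb6*. *Scel* had 69.9 and 72.7 FPKM in si-NC and 91.8 and 96.5 FPKM in si-*Itgb6*. The ratio of *Scel* to *Krt20* was 0.992 and 0.986 in si-NC, where the levels of these genes did not differ beyond their spread. In the si-*Itgb6* libraries *Scel* exceeded *Krt20* by 20.3% and 18.6%. *Krt23* was close to undetected, with 3 and 0 counts in si-NC and 3 and 2 counts in si-*Itgb6*. No library held more *Krt23* than the 3 counts that a count of 0 still allows. *Krt23* did not pass the filter on low counts, so it was not tested and has no fold change.

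**Figure D1:**
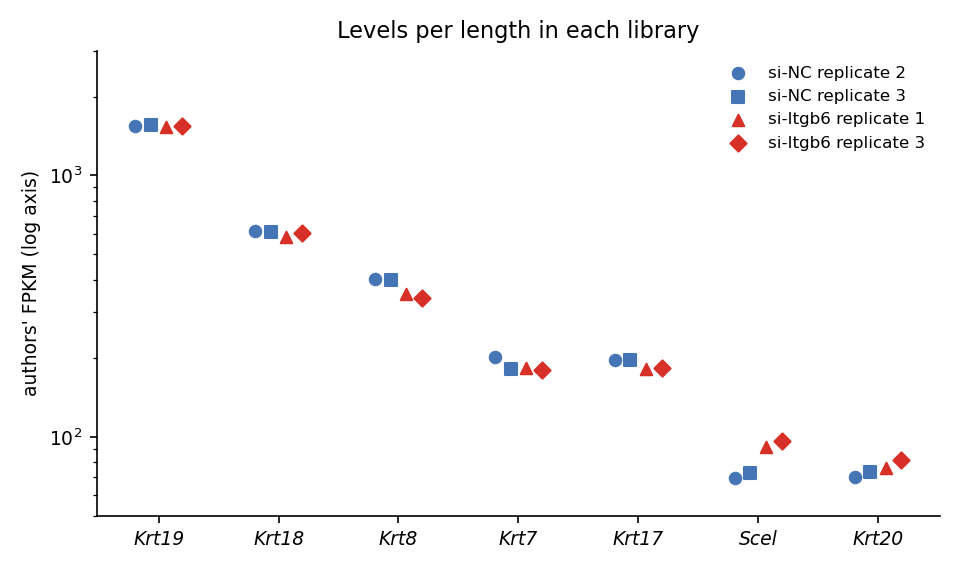
Level per length (the authors' FPKM, log axis) of 6 of the 7 genes and of *Krt17* in each library, with 1 symbol per library and colour for the group. *Krt19* lies between 1527 and 1567 FPKM in all libraries, *Krt18* and *Krt8* follow, *Krt7* and *Krt17* overlap, and *Scel* is above *Krt20* in the si-*Itgb6* libraries, while *Krt23* (at most 0.124 FPKM) is not drawn.

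The table listed 53 keratin genes, 28 of type I and 25 of type II. Their summed FPKM was 3067 and 3056 in si-NC and 2931 and 2966 in si-*Itgb6*, which is 0.543% to 0.568% of all FPKM. The 6 keratins of the set made up 92.6% to 92.7% of that sum in every library, and *Krt19* alone made up 50.6% to 52.1%. Keratins of simple epithelia thus made up most of the keratin mRNA in these libraries of a renal proximal tubular cell line.

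Type I keratin transcripts exceeded type II transcripts per length in every library. Type I keratins summed to 2454 and 2465 FPKM in si-NC and 2388 and 2437 FPKM in si-*Itgb6*. Type II keratins summed to 612 and 591 FPKM in si-NC and 543 and 529 FPKM in si-*Itgb6*. The ratio of type I to type II was 4.01 and 4.17 in si-NC and 4.40 and 4.60 in si-*Itgb6*, without overlap. These sums rest on *Krt19* and *Krt18* for type I and on *Krt8* and *Krt7* for type II, so the ratio restates the values of the members and is no separate result.

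**Figure D2:**
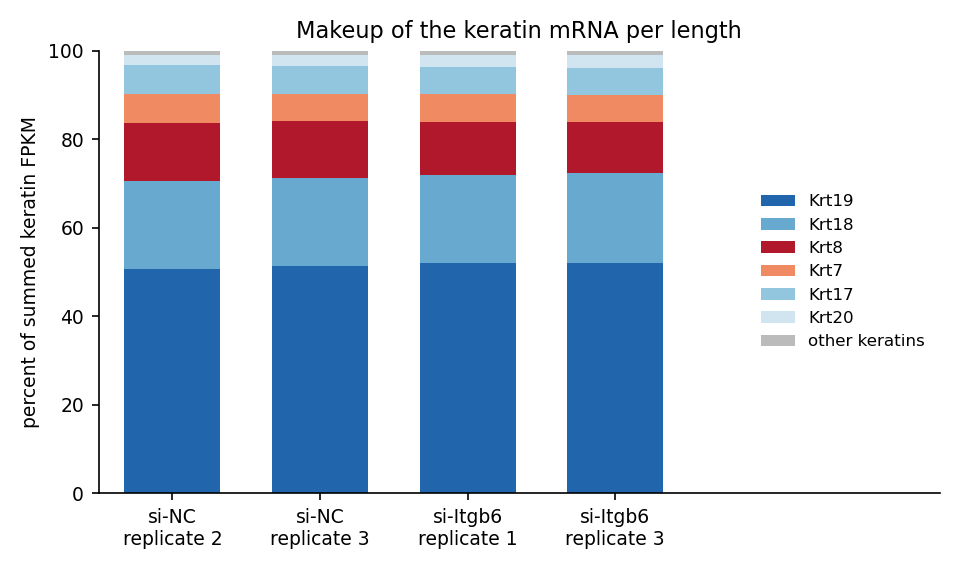
Share of each keratin in the summed keratin FPKM of a library (percent, stacked bars), for the 4 libraries, with blue for type I, red for type II and grey for all other keratins of either type. *Krt19* takes 50.6% to 52.1% of each bar, and the *Krt8* segment is 13.1% in both si-NC libraries and 12.0% and 11.5% in the si-*Itgb6* libraries.

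Among the type II chains, *Krt8* was lower in the si-*Itgb6* libraries. *Krt8* (ENSMUSG00000049382) is a minus-strand gene of chromosome 15, from 101996698 to 102004482 (GRCm38, GENCODE vM21), in 9 exons. Its neighbour at a distance of 23.7 kb is its filament partner *Krt18*, on the plus strand. *Krt8* and *Krt18* are the only type II and type I keratins of the set that lie side by side. The 30 bases around the start of *Krt8* in RefSeq, chr15:102004328-102004357 on the minus strand of GRCm38.p6, are shown because they hold the letters TATAAA on both strands. Both matches, which overlap, are in capitals and span the start itself, from 3 bases before it to 4 bases after it. The window lies inside the gene as GENCODE gives it, so the starts in RefSeq and GENCODE differ.

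*Krt8* start: ctggcctcttctTTTATAAAgggccttcgc

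On the scale of counts relative to library size after TMM normalization (CPM), *Krt8* had 781 CPM in each si-NC library and 685 and 677 CPM in the si-*Itgb6* libraries. The means were 781 ± 0.476 CPM (SD, n = 2) and 681 ± 5.62 CPM (SD, n = 2), so both si-*Itgb6* libraries lay below both si-NC libraries. The log2 fold change was -0.20 with an SE of 0.046, or 12.8% lower, which is under the fold change of 1.2 needed for a call. With trends of the libraries on GC content and transcript length removed, the log2 fold change of *Krt8* was -0.11. Of the 50-base stretches of its transcript, 29.7% also occur in the pseudogene *Krt8-ps* or in *Gm36026*, a noncoding gene on the opposite strand whose exons overlap those of *Krt8*. Neither of these genes has a row in the count table. Without strand information, reads of *Gm36026* from the overlapping exons could not be told apart from those of *Krt8*. Reads of *Krt8-ps* that lie within the shared stretches could not be told apart by sequence.

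*Krt7* (ENSMUSG00000023039), the other type II chain, lies on the plus strand of chromosome 15 from 101411043 to 101430313. Its exons overlap those of *Gm671*, an antisense gene without a row in the count table, and without strand information their reads could not be told apart. *Krt7* had 768 and 743 CPM in si-NC and 692 and 703 CPM in si-*Itgb6*. Its groups did not overlap on the CPM scale, with a log2 fold change of -0.12 and an SE of 0.047. On the FPKM scale they did overlap, with a log2 difference of -0.074, and the value after removal of the GC and length trends was -0.057. The length by which the authors divided, read from counts and FPKM, was 3832, 4094, 3771 and 3838 bases for *Krt7* in the 4 libraries. This gene has 5 annotated transcripts, of which the longest has 4094 bases, and its FPKM therefore also moves with the isoforms assigned to it. For *Krt8*, *Krt18*, *Krt19* and *Krt20* the length was that of the annotated transcript in each library.

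The abundant type I chains differed by less than the spread between replicates. *Krt18* (ENSMUSG00000023043; chromosome 15 from 102028180 to 102032027) had 876 and 869 CPM in si-NC and 831 and 879 CPM in si-*Itgb6*. The si-*Itgb6* libraries were the lowest and the highest of the 4, and the log2 fold change was -0.029 with an SE of 0.047. *Krt19* (ENSMUSG00000020911; chromosome 11 from 100140810 to 100148665, minus strand) had 2429.8 and 2462 CPM in si-NC and 2399.6 and 2468 CPM in si-*Itgb6*. The log2 fold change, -0.0072, had an SE of 0.042 and a 95% interval from -0.092 to 0.077. The signs of both values turned with the GC and length trends removed, to 0.037 for *Krt18* and 0.079 for *Krt19*, and they also turned when certain libraries were left out. 

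Because *Krt8* was lower and *Krt18* was not, the ratio of this pair per length was 0.655 and 0.659 in si-NC and 0.605 and 0.565 in si-*Itgb6*. The ratio of *Krt19* to *Krt8* was 3.86 and 3.92 in si-NC and 4.35 and 4.53 in si-*Itgb6*. The groups overlapped in neither ratio. Both ratios share the values of *Krt8*, restate those of the members and are no separate result. The annotated transcripts of *Krt8*, *Krt18* and *Krt19* have GC contents of 57.1%, 56.4% and 57.6%. Their log2 fold changes were -0.20, -0.029 and -0.0072 before the GC and length correction, and -0.11, 0.037 and 0.079 after it. Why *Krt8* differed from the type I genes was not tested. The limits given above for the reads of *Krt8* also hold for these ratios.

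*Krt20* is a keratin of differentiated intestinal and urothelial cells and is also known from injured tubules. The gene (minus strand) occupies chromosome 11 from 99428403 to 99438150 (ENSMUSG00000035775), 39.8 kb from *Krt23*. *Krt20* had 135 and 142 CPM in si-NC and 147 and 159 CPM in si-*Itgb6*. Both si-*Itgb6* libraries were above both si-NC libraries, at a log2 fold change of 0.14 with an SE of 0.063. The si-*Itgb6* libraries lay further from each other than the nearest libraries of the groups did, and without si-*Itgb6* replicate 3 the log2 fold change was 0.087.

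*Scel* (ENSMUSG00000022123) lies on the plus strand of chromosome 14 from 103513342 to 103612797, in 30 exons. It was the gene of the set that differed most between the groups. *Scel* had 2751 and 3043 counts in si-NC and 3443 and 3915 counts in si-*Itgb6*, or 169 and 176 CPM against 222 and 238 CPM. The means were 172 ± 5.30 CPM (SD, n = 2) and 230 ± 10.9 CPM (SD, n = 2), so the gap between the groups was wider than the spread within either. The log2 fold change was 0.42 with an SE of 0.058, a fold change of 1.33. With each library omitted in turn it ranged from 0.37 to 0.46, and removal of the GC and length trends gave 0.37. None of the 50-base stretches of the *Scel* transcript occurs in another annotated gene, which also holds for *Krt19*, *Krt20* and *Krt23*.

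**Figure D3:**
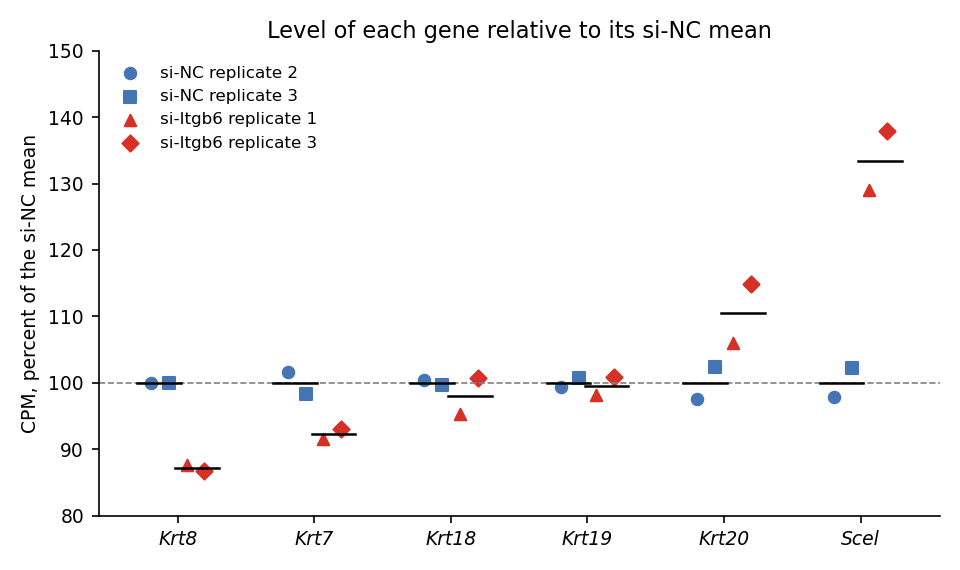
CPM of the 6 genes tested in each library, as percent of the mean of the si-NC libraries (vertical axis not from 0), with 1 symbol per library and a black bar for the mean of each group. *Krt8* lies at 87.7% and 86.7% in si-*Itgb6*, *Krt18* and *Krt19* on both sides of 100%, and *Scel* at 129% and 138%.

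Of the 7 genes, 6 passed the filter on low counts, 0 were called lower and 1, *Scel*, was called higher, where 5.2% and 4.37% of all genes tested were called. Libraries of si-NC and si-*Itgb6* stood apart, with si-*Itgb6* lower, for *Krt7* and *Krt8* (25.4% of all genes tested), and with si-*Itgb6* higher for *Krt20* and *Scel* (23.8% of all genes tested). Since the genes were chosen with this contrast known, nothing is read from these counts. The median log2 fold change of the 6 genes was -0.018, beside 0.0002 over all genes tested. After removal of the trends on GC content and length it was 0.058.

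**Figure D4:**
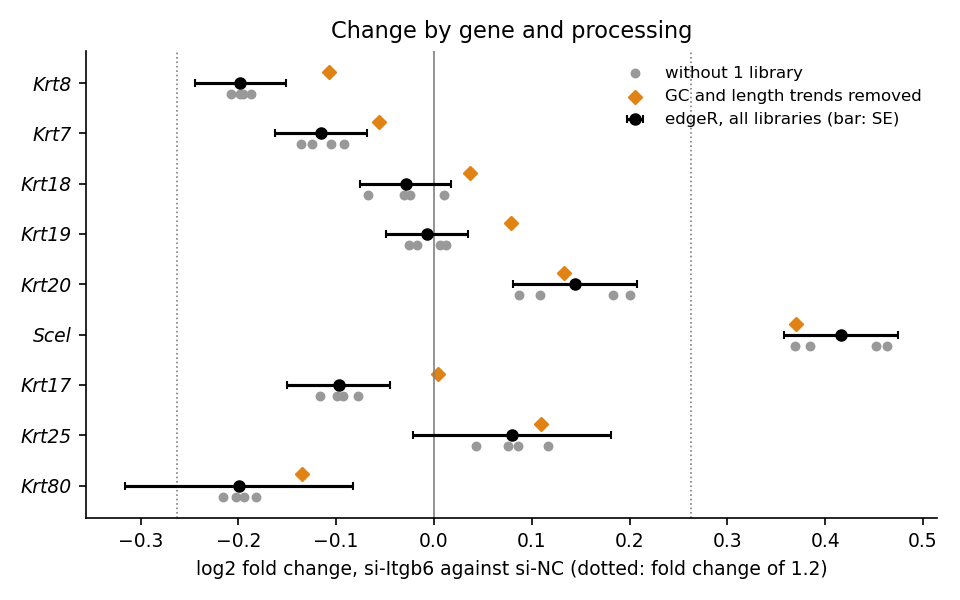
Log2 fold change of si-*Itgb6* against si-NC for the 6 genes tested and for *Krt17*, *Krt25* and *Krt80* (black, with the SE), with each library left out in turn (grey) and with the GC and length trends removed (orange). *Scel* stays between 0.37 and 0.46, *Krt8* moves from -0.20 to -0.11 with the trends removed, and *Krt18*, *Krt19* and *Krt17* move across 0.

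The stretches before the starts of *Scel* and *Krt20* are shown because these genes had the higher values in si-*Itgb6* and hold matches to the motifs searched. The promoter table of RefSeq (250 bases before to 50 after the start, 300 in all) held 6 of the 7 genes, with *Krt19* missing. TATAAA, searched on both strands, occurs in 13.6% of the 32851 promoters, and among the 6 genes in those of *Krt8* and *Krt20*. TGANTCA, the palindromic AP-1 motif, occurs in 7.81% of the promoters, and among the 6 genes in that of *Scel*, where it starts 36 bases before the start. CATTCC, the core of the TEAD motif, occurs in 14.7% and among the 6 genes only in *Krt20*, with 3 matches, 2 of them overlapping. The 80 bases before the start are chr14:103513261-103513340 (plus strand) for *Scel* and chr11:99438154-99438233 (minus strand) for *Krt20*, both from GRCm38.p6. Capitals mark TGANTCA in *Scel* and CATTCC and TATAAA in *Krt20*. Only the CATTCC match 74 bases before the start of *Krt20* is shown, as those at 139 and 134 bases lie outside the 80 bases.

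*Scel* promoter: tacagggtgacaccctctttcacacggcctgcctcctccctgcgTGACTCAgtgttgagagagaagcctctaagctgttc

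*Krt20* promoter: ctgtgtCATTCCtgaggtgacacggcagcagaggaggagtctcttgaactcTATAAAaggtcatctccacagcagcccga

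These matches describe the letters of the windows and say nothing of a factor's binding. 

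The other 47 keratin genes gave few values. Of these, 19 had no count in any library and 7 were tested, with 0 called lower and 1 called higher. The gene called was *Krt14*, the type I keratin of basal cells, with 1.72 and 1.68 CPM in si-NC and 2.84 and 3.40 CPM in si-*Itgb6* (log2 fold change 0.88, SE 0.34, adjusted p = 0.140, edgeR). That call was lost with DESeq2, when si-NC replicate 3 was left out (0.86) and when si-*Itgb6* replicate 3 was (0.74). *Krt17*, the stress-responsive type I keratin and the only abundant keratin outside the set, had 304 and 305 CPM in si-NC and 281 and 289 CPM in si-*Itgb6*. *Krt17* differed by -0.10 on the log2 scale (adjusted p = 0.322, edgeR), and 0.0038 with the GC and length trends removed. *Krt80* (type II) at -0.20 and *Krt25* (type I) at 0.08 were not called (adjusted p = 0.375 and 0.734, edgeR). The rest, *Krt5*, *Krt10* and *Krt16*, were under 6 CPM in every library and not called.

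Keratin filaments are anchored at desmosomes and hemidesmosomes by plakins and armadillo proteins. Of 27 such genes 20 were tested, with 2 called lower, 2 called higher and a median log2 fold change of -0.033. *Evpl* encodes envoplakin, which ties filaments to the cornified envelope and the desmosome. It fell from 39.2 and 33.6 CPM in si-NC to 22.6 and 27.0 CPM in si-*Itgb6* (log2 fold change -0.55, SE 0.11, adjusted p = 0.00228, edgeR). *Plec*, the hemidesmosomal linker plectin, fell from 77.6 and 63.6 CPM to 59.6 and 53.3 CPM (log2 fold change -0.32, adjusted p = 0.0278, edgeR). The call of *Plec* was lost when si-NC replicate 2 (-0.17) or, in turn, si-*Itgb6* replicate 3 (-0.24) was left out, and with the GC and length trends removed (-0.21).

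*Eppk1*, which encodes epiplakin, a large plakin that binds keratin filaments, rose from 8.59 and 14.2 CPM in si-NC to 18.2 and 16.3 CPM in si-*Itgb6* (log2 fold change 0.59, adjusted p = 0.0322, edgeR). Without si-NC replicate 2 it was 0.27 and not called, and without si-NC replicate 3 it was 1.01. The desmosomal cadherin *Dsg3*, under 3 CPM in each library, was called at 0.78 on the log2 scale (adjusted p = 0.253, edgeR), and that call was lost with DESeq2, after the GC and length correction and whichever of the 4 libraries was left out. The abundant desmosome genes were not called. *Dsp*, which encodes desmoplakin, averaged 222 ± 11.1 CPM (SD, n = 2) for si-NC against 231 ± 5.05 CPM (SD, n = 2) for si-*Itgb6*, and *Jup*, *Pkp2* and *Dsg2* had log2 fold changes of -0.14, -0.041 and 0.053. *Ppl*, which encodes periplakin, the partner of envoplakin, differed by 0.093 on the log2 scale (adjusted p = 0.494, edgeR) and was not called. *Dsc2*, *Dsc3* and *Dsg1c* had no count in any library.

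Of 24 genes listed under keratin binding and turnover, all were tested, with 3 called lower and 1 called higher at a median of 0.0027. The list also holds *Krtcap2*, *Krtcap3* and *Nek3*, for which no action on keratins is claimed. *Hspb1*, a small heat shock protein that associates with keratin filaments, fell from 640 and 678 CPM in si-NC to 566 and 520.2 CPM in si-*Itgb6* (log2 fold change -0.28, SE 0.051, adjusted p = 0.000869, edgeR). Its call ended, by the fold change needed, when si-NC replicate 3 (-0.23) or, in turn, si-*Itgb6* replicate 3 (-0.22) was left out, and with the GC and length trends removed (-0.16). *Tgm2*, a transglutaminase that cross-links keratins, fell from 93.0 and 90.2 CPM to 68.0 and 71.4 CPM (log2 fold change -0.39, adjusted p = 0.00107, edgeR), and was called under all alternatives except a fold change over 1.5 or 2. *Fbf1*, whose protein binds keratin filaments, was called lower at -0.26 and *Nek3*, a kinase, higher at 0.96 (adjusted p = 0.212 and 0.221, edgeR). The call of *Fbf1* was lost with RLE size factors but kept with library size only, and was lost with DESeq2, with either other filter on low counts and after the GC and length correction (-0.14). It was also lost when si-NC replicate 2 (-0.17) or, in turn, si-*Itgb6* replicate 1 (-0.22) was left out. That of *Nek3*, under 3 CPM in each library, was lost with DESeq2, without either si-NC library or without si-*Itgb6* replicate 1 (0.65).

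Of 16 genes of other intermediate filaments 6 were tested and 0 were called by either rule, at a median of -0.13. Without si-NC replicate 3, 2 were called lower and the median was -0.27. With library size only 1 was called lower, and 1 was called higher with the exact test, with the likelihood ratio test and with a minimum of 10 counts in every library. The most abundant were *Lmna*, for the nuclear lamins A and C, at 191 ± 5.32 CPM (SD, n = 2) for si-NC against 184 ± 6.11 CPM (SD, n = 2) for si-*Itgb6*, and *Nes*, for nestin, at a log2 difference of -0.21 (unadjusted p = 0.0104, adjusted p = 0.115, edgeR). *Vim*, which encodes vimentin, the filament of mesenchymal cells, had 0.736 and 0.695 CPM in si-NC and 1.16 and 1.70 CPM in si-*Itgb6* (adjusted p = 0.289, edgeR). *Vim* was singled out after its values were seen. It was under 2 CPM in each library, beside 677 CPM or more for *Krt8*.

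Sciellin belongs to the cornified envelope, and in a list of other envelope genes 0 were called higher by the quasi-likelihood test on all libraries. *Evpl* (-0.55, called lower) and its partner *Ppl* (0.093, not called) are counted with the desmosome genes above and not in this list. Of the 40 genes of the envelope list 37 were in the count table and 14 tested, with 1 called lower and a median of -0.043. Leaving out si-NC replicates 2 and 3 in turn gave medians of -0.17 and -0.090, and leaving out si-*Itgb6* replicates 1 and 3 gave -0.14 and 0.098, so its sign rested on single libraries. Without si-NC replicate 2, 2 genes were called lower and 1 higher, and with the likelihood ratio test these numbers were the same. The gene called lower was *Aloxe3*, a lipoxygenase of the epidermal barrier, with 0.865 CPM in si-NC and 0.184 CPM in si-*Itgb6* on average (log2 fold change -2.16, adjusted p = 0.105, edgeR). That call rests on few counts and was lost without either si-NC library or without si-*Itgb6* replicate 1 (-1.49), while without si-*Itgb6* replicate 3 the value was -3.59. *Sprr1a*, a small proline-rich envelope precursor, averaged 290.5 ± 20.3 CPM (SD, n = 2) for si-NC against 252 ± 10.4 CPM (SD, n = 2) for si-*Itgb6*. The log2 difference of -0.21 (adjusted p = 0.0283, edgeR) was under the fold change needed for a call. *Flg*, *Flg2*, *Hrnr* and *Tgm3* were among the 9 genes without a count.

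Of 34 transcription factors of epithelial genes 25 were tested, with 2 called lower, 1 called higher and a median of -0.0015. *Klf6*, a Krüppel-like zinc finger factor, rose from 44.3 and 59.6 CPM in si-NC to 76.9 and 73.1 CPM in si-*Itgb6* (log2 fold change 0.53, adjusted p = 0.000666, edgeR), and without si-NC replicate 2 the value was 0.33. *Grhl1*, a grainyhead-like factor of barrier genes, fell from 3.50 and 4.29 CPM to 2.20 and 2.07 CPM (log2 fold change -0.87, adjusted p = 0.0945, edgeR), a call lost without si-NC replicate 3 (-0.71). *Foxa1*, a forkhead factor, was called lower at -0.37 (adjusted p = 0.183, edgeR), a call lost with DESeq2, after the GC and length correction and when si-NC replicate 3 (-0.25) or, in turn, si-*Itgb6* replicate 3 (-0.27) was left out. The epithelial ETS factors *Elf3* at -0.19 and *Ehf* at 0.25 (adjusted p = 0.0222 and 0.0315, edgeR) were both under the fold change needed for a call, and were singled out after their values were seen. 

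Over these 6 lists 96 genes were tested, of which 8 were called lower and 5 higher, and 9 had an adjusted p under 0.05, beside 5.2%, 4.37% and 4.62% of all genes tested. As a share of the 96 genes, 13.5% were called in either direction, beside 9.57% of all genes tested. The lists were chosen with earlier results of these data known, so nothing is read from these shares.

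**Figure D5:**
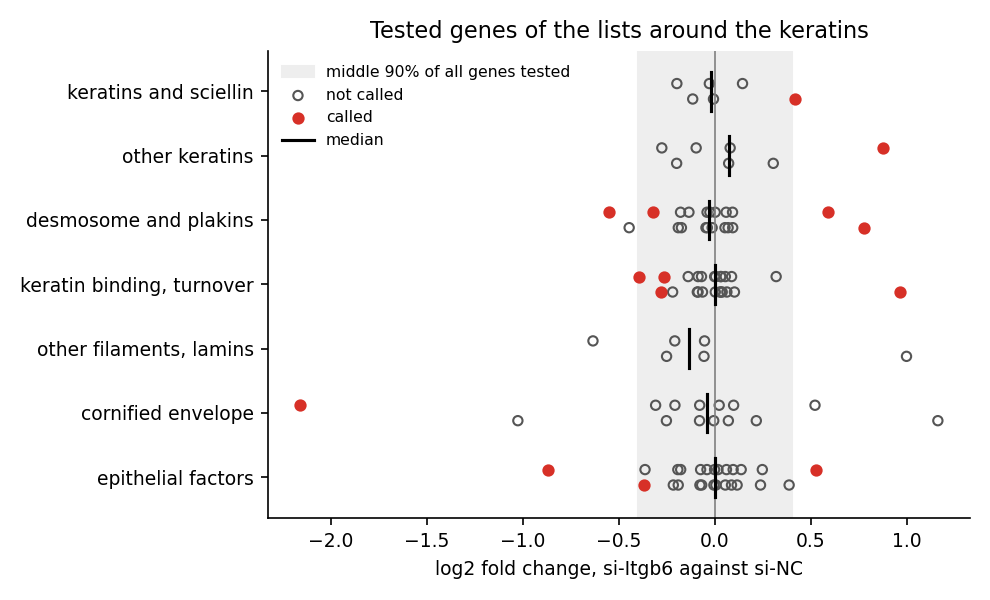
Log2 fold change of si-*Itgb6* against si-NC (horizontal axis) for each tested gene of the set and of the 6 lists (rows), with called genes filled in red, other genes open, the median as a black line and the middle 90% of all genes tested in grey. All list medians lie between -0.13 and 0.07. Genes called on both sides appear among desmosome and plakin genes, in the list of keratin binding and turnover and among epithelial factors.

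The genes with the most similar pattern over the 4 libraries were found among 8180 genes with at least 10 CPM on average, by the root mean square difference of log2 CPM centred on each gene's mean. They were *Tspan3* for *Krt7* (0.0044), *Cyb561a3* for *Krt8* (0.0043), *Gm11808* for *Krt18* (0.0031), *Preb* for *Krt20* (0.0028) and *Gnai1* for *Scel* (0.0059). With 4 values per gene such closeness is a description of these libraries.

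Markers of other cells that carry these keratins were measured in the same libraries, and their part in the keratin values was not tested. Markers of urothelium, in which *Krt20* and uroplakins occur together, were tested for 4 of 10 genes with 0 called. They summed to 125 to 130.4 CPM in si-NC and 132 to 133 CPM in si-*Itgb6*. Most of each sum was *Ppl*, which is also counted with the desmosome genes above, at 100 to 109 CPM. Of the uroplakins, *Upk3b* had 216 to 309 counts in a library, *Upk1a* 7 to 10 counts, and *Upk1b*, *Upk2* and *Upk3a* at most 3 counts. *Psca* had 106 to 141 counts, and *Trp63* had none. The mesothelial marker *Wt1* had no count in any library, while *Msln* was abundant, at 381 CPM in si-NC and 397 CPM in si-*Itgb6* on average, and 0 of the 4 mesothelial markers tested, *Krt19* among them, were called. Markers of other nephron segments summed to 69.8 to 72.4 CPM in si-NC and 74.9 to 77.3 CPM in si-*Itgb6*. Most of each sum was *Podxl*, at 55.9 to 60.7 CPM. Of 6 tested, 1 was called higher, the water channel gene *Aqp3* (log2 fold change 0.41, adjusted p = 0.255, edgeR). Of the 18 markers 8, among them *Umod*, *Aqp2* and *Calb1*, had no count.

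The proximal tubule markers summed to 290 to 295 CPM in si-NC and 312 to 332 CPM in si-*Itgb6*, with *Aqp1* (log2 fold change 0.59) and *Mme* (0.35) called higher of 9 tested. Markers of fibroblasts summed to at most 6.53 CPM in a library, with 0 of 1 tested called and the highest sum in si-*Itgb6* replicate 1. That library stood apart for *Col1a1*, *Col3a1*, *Col1a2*, *Dcn* and the leukocyte marker *Lyz2*, with 22, 14, 11, 5 and 11 counts, where the other libraries had 0 to 2 counts of each. The values of the keratins and *Scel* without this library stand among those with each library left out. Those of endothelium summed to 7.54 to 8.11 CPM in si-NC and 4.26 to 6.56 CPM in si-*Itgb6*, with 1 of 2 tested, *Plvap* (-1.09, adjusted p = 0.0420, edgeR), called lower. Those of leukocytes summed to 141 to 151 CPM in si-NC and 133 to 136 CPM in si-*Itgb6*, with 0 of 3 called. *Ptprc*, which marks all leukocytes, had at most 6 counts in a library, and the leukocyte sums were mostly *Cd68*, at 98.2 to 114 CPM, and *Csf1r*, at 22.2 to 27.5 CPM. In bulk libraries, fewer cells with a gene and less of its mRNA per cell cannot be told apart.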

How the data were processed

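RNA-sequencing was analysed in 4 libraries of hypoxic TKPTS cells, 2 per siRNA. The authors prepared polyadenylated RNA with a kit that keeps no strand information, sequenced it, and deposited an estimated count for every gene without normalization. Between 1447 and 1500 genes per library have an estimated count that is not whole. FPKM values, also deposited by the authors, divide the counts by transcript length and library size. They were used for levels between genes and in no test. The aligner, counting tool and genome build are not given in the sources used here. Files of single libraries differed from the series table in 0 values.

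Counts were rounded to whole numbers, filtered with filterByExpr (minimum count 10, minimum total count 15), normalized by TMM and compared with the quasi-likelihood test (edgeR 4.0.16, run in R 4.3.3). P-values were adjusted by Benjamini-Hochberg over 11727 genes. Calls needed a fold change over 1.2 at an unadjusted p under 0.05, as in the study's methods. The test was run first on simulated counts. Replicates differed by more than sampling noise, with a chi-square per gene of 3.21 in si-NC and 4.08 in si-Itgb6. Intervals are at the 95% level and rest on the spread between these libraries. Whether this includes differences between cultures is not known. Permuting labels of 2 against 2 libraries cannot give a p under 0.05, so single ratios were given without a test.

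The members and all lists were chosen with earlier results of these data known. The text names the members, Itgb6, tested keratins, called genes of each list (at most 4 per direction) and, in a list without calls, the 2 most abundant genes; other genes of a list are given as values beside them, and markers of other cells by their sums, called genes and defining genes. Coordinates, GC content and lengths came from GENCODE vM21 (GRCm38), which held 99.6% of the genes listed and gave GC content and length for 99.8% of those tested. Promoters came from RefSeq (GRCm38.p6). Trends on GC content and length were removed by offsets. Alternatives were other size factors and tests, DESeq2 1.42.0, filters, thresholds, FPKM, and leaving out each library. The pattern likeness of Krt19 is not reported here.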

Additional observations from a re-analysis of the deposited data

How the results depend on the processing

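No paired analysis was possible because the groups share only replicate number 3. The 610 lower and 512 higher genes over all became 383 and 320 with DESeq2, 110 and 125 at a fold change over 1.5, 44 and 42 over 2, and 240 and 178 with an adjusted p. Leaving out 1 library gave 402 to 768 lower and 338 to 645 higher genes, with the lowest of both, 402 and 338, without si-NC replicate 2.

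*Scel*, the 1 member called, was not called at a fold change over 1.5 or 2, which left 0 members called. Its log2 fold change was 0.37 to 0.46 with each library left out in turn. This describes a gene chosen with the contrast known and is no test. The median of the members, -0.018, was -0.046 to 0.011 without 1 library and 0.058 after removal of the trends on GC content and length. For the lists around the members, the 8 genes called lower became 2 at a fold change over 1.5, 1 over 2, 4 with an adjusted p, 4 after removal of the trends on GC content and length, and 5 to 7 without 1 library, with 5 without si-*Itgb6* replicate 3. The 5 genes called higher became 2 with DESeq2, 0 over 2-fold, 2 with an adjusted p, and 3 without any 1 library.

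Signs of 6 genes turned. With the GC and length trends removed, *Krt17* was 0.0038, *Krt18* 0.037 and *Krt19* 0.079. Without si-NC replicate 2, *Itgb6* was 0.038 and *Krt10* 0.075. Without si-NC replicate 3, *Krt19* was 0.0057 and *Krt5* -0.27. Without si-*Itgb6* replicate 1, *Krt18* was 0.010, *Krt19* 0.012 and *Krt5* -0.37. Without si-*Itgb6* replicate 3, *Itgb6* was 0.091. Over the 4 libraries left out in turn, the values ranged from -0.10 to 0.091 for *Itgb6*, from -0.56 to 0.075 for *Krt10*, from -0.067 to 0.010 for *Krt18*, from -0.025 to 0.012 for *Krt19* and from -0.37 to 0.51 for *Krt5*. The cause was not tested. The 6 members tested had 2201 counts or more in each library, while *Krt23* had at most 3.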
